A study of Mus musculus with 25 samples.

Results

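Neuronal nuclei from the hippocampus of young mice were compared between libraries labelled Ftl1 OE, from mice given a virus that carries Ftl1, and control libraries, from mice given the GFP virus alone. The comparison held 12 of the 25 samples of the series, 5 controls (mice 9901, 9904, 9905, 9925 and 9926) and 7 labelled Ftl1 OE (mice 9895, 9910, 9914, 9915, 9918, 9923 and 9932). Of the 24411 genes in the deposited table, the 14099 whose normalized count averaged 10 or more over the 12 libraries were tested, whatever their difference between the groups.

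All animals were male C57BL/6J mice of 3 months that received virus on both sides of the brain, in CA1 and the dentate gyrus. In both groups the vector carried the synapsin-1 promoter and an IRES-eGFP cassette, so the controls also made GFP, and Ftl1 was driven in neurons only as far as this promoter is neuronal. The paper describes the vector as a lentivirus in its results and as an adeno-associated virus in its injection methods. Nuclei positive for NeuN, a protein of mature neurons, and for the DNA dye Hoechst were sorted, and the methods name no selection for GFP, so the share of transduced nuclei in a library is not known. The NeuN antibody carried a green dye, the colour of eGFP. Each library carried the number of 1 mouse, and no batch, date or pairing of mice was given.

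Ftl1 encodes the light chain of ferritin, the hollow protein shell that stores iron in the cytosol. The heavy chain, encoded by Fth1, oxidizes the iron, and the light chain helps to form the mineral core. Neurons use iron in the respiratory chain, whose complexes are assembled from nuclear and mitochondrial gene products, and ferritin messages are controlled mainly at translation by iron regulatory proteins.

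The libraries held 9943996 to 17034325 reads, and between 12281 and 15602 genes had at least 1 read. Control 9905 stood apart. It had the fewest genes with a read, and 391 genes that were abundant in the other libraries (mean of at least 100) had no read in it, against 123 in Ftl1 OE 9918, 93 in control 9926, 55 in control 9904, 39 in Ftl1 OE 9895 and 1 to 3 in the other 7. Of the tested genes, 50.1% in control 9905, 46.7% in control 9904, 40.6% in control 9926 and 33.7% in Ftl1 OE 9918 lay more than 2-fold from the mean of the rest of their own group, and the lowest share was 11.8%, in Ftl1 OE 9914. Pairs of libraries that include 9905 correlated at r = 0.712 to 0.809 across genes, and the other pairs at 0.722 to 0.929. Results are therefore given with all 12 libraries, without control 9905 and, as settings added after the data were seen, without both controls 9905 and 9926 and without these controls and Ftl1 OE 9918.

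Transcripts of neurons were present in every library, and so were those of other cells. Rbfox3, which encodes NeuN, had 2951 to 4503 normalized counts in the controls and 2573 to 5301 in the libraries labelled Ftl1 OE. The summed level of 10 neuron markers ran from 59225 to 82631 in the controls and from 46641 to 68408 in Ftl1 OE. The sum of 10 oligodendrocyte markers, of which Mbp (myelin basic protein) was the largest, ran from 22969 to 48188 and from 26650 to 44585, and that of 10 astrocyte markers from 13795 to 48759 and from 20731 to 65096. In bulk libraries of this kind, fewer cells of a type and less RNA per cell cannot be told apart.

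Ftl1 itself was not higher in the libraries labelled Ftl1 OE. Its normalized counts were 7315, 4580, 28309, 7415 and 9953 in controls 9901, 9904, 9905, 9925 and 9926, and in Ftl1 OE the lowest was 4737, the median 5171 and the highest 7663. Control 9905 was far above all other libraries, at 3.87 times the mean of the other controls, and the Ftl1 OE libraries lay inside the range of the other 4 controls. The log2 difference, Ftl1 OE minus control, was −0.67 with a standard error of 0.34 (limma, adjusted p = 0.681, and 0.133 to 0.999 over the alternatives, 0.133 from DESeq2). Without control 9905 it was −0.27, and the exact permutation test (two-sided) over 330 splits gave p = 0.321. Without both controls 9905 and 9926 it was −0.10. The level of the Ftl1 transcript thus did not show the increase that the label names. The paper reports more hippocampal FTL1 protein by western blot after this injection, a measure of protein and not of nuclear RNA. Whether transcripts of the vector were counted under this gene was not tested. Every direction given is that of the libraries labelled Ftl1 OE.

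Fth1 had 24279, 18416, 50938, 22902 and 28895 normalized counts in the controls in the same order, and a lowest of 16271, a median of 20429 and a highest of 27468 in Ftl1 OE. The groups overlapped, and 9905 was again the highest library, at 2.16 times the mean of the other controls. The log2 difference was −0.41 (standard error 0.26), with an exact permutation p of 0.105 over 792 splits, and −0.19 without control 9905 (exact permutation p = 0.303).

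The genes of iron handling, Ftl1 and Fth1 among them, did not move in 1 direction. Of 31 listed genes 27 were tested, 15 were higher and 12 lower in Ftl1 OE, and the median log2 difference was 0.11, with all 12 libraries, and −0.01 without control 9905. At a nominal limma p of 0.05 or less (not adjusted for the number of genes), 1 gene was higher and 1 lower, beside 3.6% and 3.66% of all tested genes. Cp, the ferroxidase ceruloplasmin, which is made by astrocytes, had 65.8, 30.7, 0, 5.51 and 0 normalized counts in the controls against a median of 51.7 (20.8 to 115) in Ftl1 OE, so that 3 of 5 controls lay below all Ftl1 OE libraries. Pcbp2, which encodes an iron chaperone that loads ferritin, had 984 ± 215 (SD, n = 5) against 720 ± 149 (SD, n = 7), a log2 difference of −0.45. Of the genes outside this rule, named after their values were seen, Tfrc, the transferrin receptor, differed by 0.28 with a standard error of 0.33, Slc11a2, the iron importer DMT1, by 0.20 (0.20), and Ncoa4, the receptor that takes ferritin to the lysosome, by −0.27 (0.23), all within the spread of the groups.

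**Figure D1:**
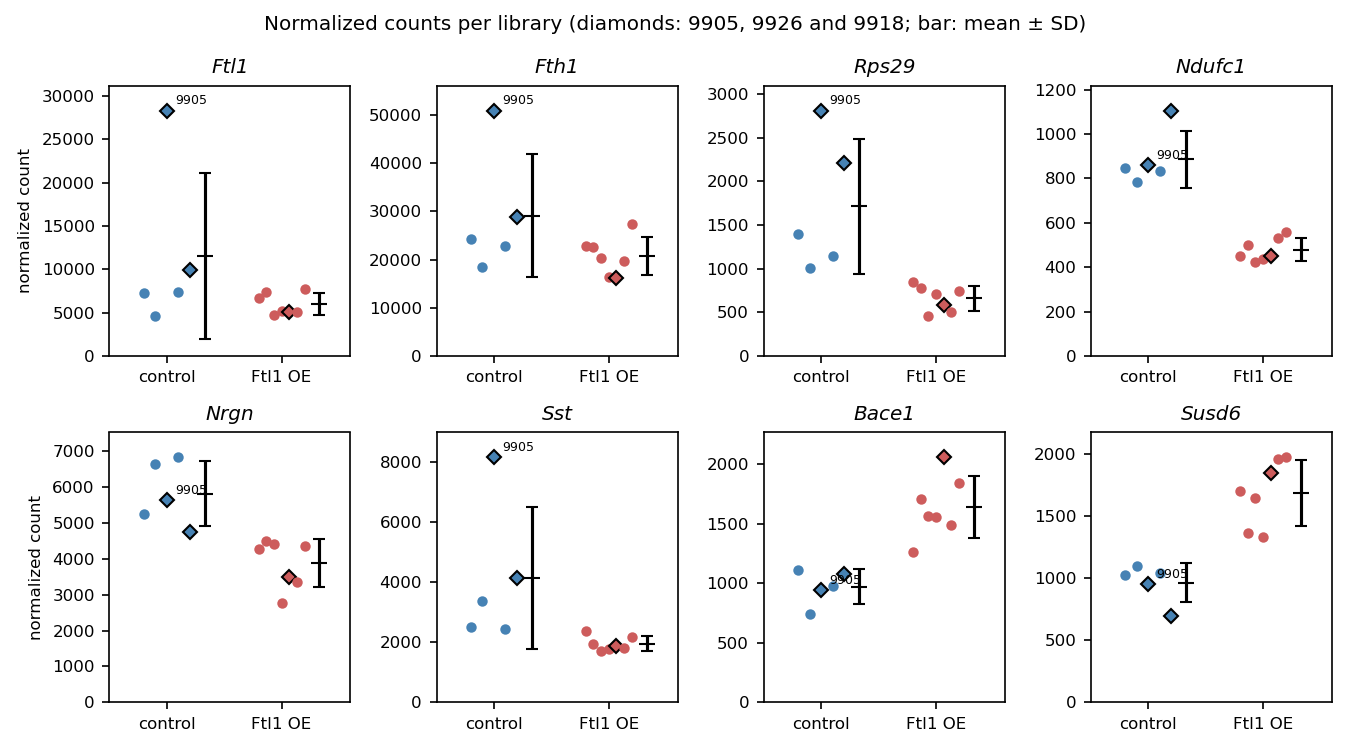
Normalized counts of 8 genes in each library (points), for the 5 controls and the 7 libraries labelled Ftl1 OE, with the mean and SD of each group as a bar and controls 9905 and 9926 and Ftl1 OE 9918 as diamonds. For Ftl1 and Fth1 the groups overlap apart from control 9905, and for Rps29, Ndufc1, Nrgn, Sst, Bace1 and Susd6 they do not overlap.

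Across all genes tested, 8094 (57.4%) were higher in Ftl1 OE by any amount and 6005 (42.6%) lower, and the median log2 difference was 0.10. No gene passed an adjusted p of 0.05 with limma, 0 higher (0.0%) and 0 lower (0.0%), and the smallest adjusted p was 0.499. At a nominal p of 0.05 or less, limma had 507 genes higher (3.6%) and 516 lower (3.66%). With edgeR's quasi-likelihood test, run on recovered reads, 0 genes passed as well, and 294 were higher and 632 lower at a nominal p. DESeq2 on the same reads called 7 genes higher (0.119%) and 94 lower (1.59%) among the 5898 genes to which it gave an adjusted p. Without control 9905, limma had 375 genes higher (2.66%) and 301 lower (2.13%) at a nominal p. The libraries of the groups did not overlap for 24 genes that were higher (0.17%) and 58 that were lower (0.411%). These shares of all tested genes are the background for the counts in each list, and no list was tested against the other genes.

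Among the genes lower without overlap were subunits of the ribosome and of oxidative phosphorylation. Of the 58 genes, 3 belonged to complex I, 1 to complex IV, 4 to the ATP synthase, 2 to the large and 6 to the small ribosomal subunit, and most belonged to none of these lists. The 10 with the smallest limma p were Rps29, Atp5e, Ndufc1, Rpl38, Ndufs5, Polr2f, Cox7c, Atpif1, Rps23 and Rps27a, with log2 differences between −1.30 and −0.74. Of these, 9 encode a ribosomal protein, a subunit of complexes I or IV or of the ATP synthase, or its inhibitor (Atpif1), and Polr2f encodes a small subunit shared by the RNA polymerases.

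Rps29, a zinc-binding protein of the small ribosomal subunit, had 1395, 1006, 2812, 1143 and 2216 normalized counts in the controls against a lowest of 457, a median of 710 and a highest of 842 in Ftl1 OE. All 7 Ftl1 OE libraries were below the lowest control, 9904, and 9905 and 9926 were the highest libraries. The log2 difference was −1.30 (standard error 0.27), −1.09 without control 9905 and −0.84 without the 2 controls and Ftl1 OE 9918.

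Ndufc1, an accessory subunit of complex I, had 849, 782, 859, 833 and 1106 in the controls against a lowest of 423, a median of 450 and a highest of 558. Here the controls other than 9926 were close to one another, and 9905 lay at 0.962 times the mean of the other controls. Its log2 difference was −0.88 (standard error 0.19) with all libraries, −0.89 without control 9905 and −0.77 without the 3 libraries. It was the gene lower that DESeq2 called with and without control 9905 (adjusted p = 0.00409 and 0.0362).

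Atp5e, the epsilon subunit of the ATP synthase, had 970, 738, 1799, 1004 and 1649 in the controls against a lowest of 422, a median of 515 and a highest of 651. Controls 9905 and 9926 were the highest, and the other 3 were still above every Ftl1 OE library. Its log2 difference was −1.18 (standard error 0.25) and −0.81 without the 3 libraries.

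Short stretches of the promoters of these genes show where a motif of a housekeeping transcription factor occurs. They were searched on both strands, in the 250 bases before the RefSeq gene start, for the core motifs of 3 factors. These were CCGGAAG (ETS family), GCGC and TGCGC parted by 1 free base N (NRF1), and AA and ATGGCG parted by 1 free base and followed by NC (YY1), and the matches shown did not overlap. Of the 10 genes 9 had a promoter in the RefSeq set (GRCm38.p6), and 3 held the ETS motif, 2 the NRF1 motif and 1 the YY1 motif. The windows of 30 bases around them are given 5′ to 3′ on the strand of the gene, with the motif, or its reverse complement, in capitals.

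Atp5e, chr2:174464185-174464214, minus strand, ETS: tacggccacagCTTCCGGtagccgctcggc
Rpl38, chr11:114668549-114668578, plus strand, ETS: gggttaaccgtCCGGAAGcggaagcctcgt
Polr2f, chr15:79141295-79141324, plus strand, ETS: cggccgctgcttcCCGGAAGtaactgcgcc
Ndufs5, chr4:123718265-123718294, minus strand, NRF1: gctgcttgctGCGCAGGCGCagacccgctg
Atpif1, chr4:132535536-132535565, minus strand, NRF1: tgaccgttctGCGCAAGCGCagcctcacgt
Atpif1, chr4:132535573-132535602, minus strand, YY1: tctcccgaaGCCGCCATTTTcccggctaac

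The ETS motif stood in 15 of 51 promoters (29.4%) of the genes lower without overlap. It stood in 18 of 62 (29%) of the cytosolic ribosomal protein genes and in 11 of 66 (16.7%) of the oxidative phosphorylation genes. It stood in 12.9% of the 11166 promoters matched to tested genes and in 7.05% of all 27025 promoters of the set. The NRF1 motif stood in 3 of 51 promoters (5.88%) of the genes lower without overlap, below the 8.03% of those of the tested genes. It stood in 13 of 66 promoters (19.7%) of the subunits of oxidative phosphorylation, in 1.61% of those of the ribosomal proteins and in 3.86% of all. The YY1 motif was rare, at 0.648% of all promoters. These shares describe the letters of the windows only, and binding was not measured.

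The nuclear-encoded subunits of oxidative phosphorylation had medians below 0 in every complex with all 12 libraries, lowest in complex IV and the ATP synthase. That of complex II came near 0 without controls 9905 and 9926 and Ftl1 OE 9918. Of 36 subunits of complex I, which oxidizes NADH, 35 were lower, 27 at a nominal limma p, and the median log2 difference was −0.64, against 0.10 over all genes. Of the 4 subunits of complex II 3 were lower, with a median of −0.30, but −0.19 without control 9905, −0.02 without both controls 9905 and 9926 and −0.004 without these and Ftl1 OE 9918. All 9 genes of complex III were lower, 5 of them at a nominal p, with a median of −0.42. All 12 genes of complex IV, cytochrome c oxidase, were lower, 10 at a nominal p, with a median of −0.78. Of 18 genes of the ATP synthase 17 were lower, 15 at a nominal p, with a median of −0.75. Beside these shares, 3.66% of all tested genes were lower at a nominal p. The 13 mitochondrially encoded subunits were not analysed here.

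The named subunits differed from one another in size. Sdha, the flavoprotein of complex II, had a log2 difference of 0.02 (−0.07 under median centring), Atp5a1 of the catalytic ATP synthase head −0.21, Atp5b −0.35, the cytochrome Cyc1 −0.28 and Ndufv1, which binds NADH, −0.49, all above a nominal p of 0.05. Sdhb, the iron-sulfur protein of complex II, and Cox4i1 of complex IV had −0.51 and −0.66, also above it. Ndufs7, an iron-sulfur subunit of the core of complex I, had −0.63 with a standard error of 0.26, at a nominal p. The small subunits Uqcr10 and Cox8a, the latter one of the most abundant of complex IV, had −0.95 and −0.89, and the inhibitor of the ATP synthase, Atpif1, −0.74. DESeq2 called Uqcr10 at an adjusted p of 0.0117.

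Control libraries 9905 and 9926 carried a large part of these differences. As the mean centred log2 level over the 36 genes, complex I stood at 0.97 in control 9905 and 0.73 in 9926, at 0.19 in both 9901 and 9925 and at −0.29 in 9904. The libraries labelled Ftl1 OE lay between −0.47 (9915) and 0.03 (9932). Control 9904 was thus inside the Ftl1 OE range, and the other 4 controls lay above it. Complex IV showed the same order, with 1.02, 0.82, 0.27, 0.20 and −0.17 in controls 9905, 9926, 9901, 9925 and 9904, and −0.56 to −0.01 in Ftl1 OE. As a share of all reads, the genes of complex I made up 1.11% in control 9905, 1.04% in 9926, 0.796% in 9925, 0.786% in 9901, 0.582% in 9904 and 0.545% to 0.684% in Ftl1 OE.

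Without control 9905 the medians were −0.45 for complex I, −0.47 for complex III, −0.63 for complex IV and −0.58 for the ATP synthase, and 18 of 36, 5 of 9, 10 of 12 and 13 of 18 genes were lower at a nominal p. Without controls 9905 and 9926 and Ftl1 OE 9918 they were −0.26, −0.36, −0.40 and −0.35. The medians of all 4 stayed below 0 in each of these sets and came closer to 0 as libraries were left out, except that of complex III without control 9905.

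Neighbouring parts of energy metabolism also had medians below 0, and these depended on the libraries. Of 22 genes of the TCA cycle 12 were lower, none (0) at a nominal limma p in either direction, with a median of −0.04 that ran from −0.11 to 0.02 with each library left out. Of 17 genes of glycolysis 14 were lower, also with 0 at a nominal p, and their median of −0.28 was −0.13 without control 9905 and 0.09 without the 3 libraries. The 29 mitochondrial carriers had a median of −0.09, or 0.01 without control 9905. Of 28 genes of protein import 23 were lower, 7 of them at a nominal p (3.66% over all genes). Their median was −0.31, or −0.15 without control 9905 and −0.06 without the 3 libraries. The gene with the smallest p among them was Tomm6, a small part of the outer membrane pore (−1.04, standard error 0.27).

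**Figure D2:**
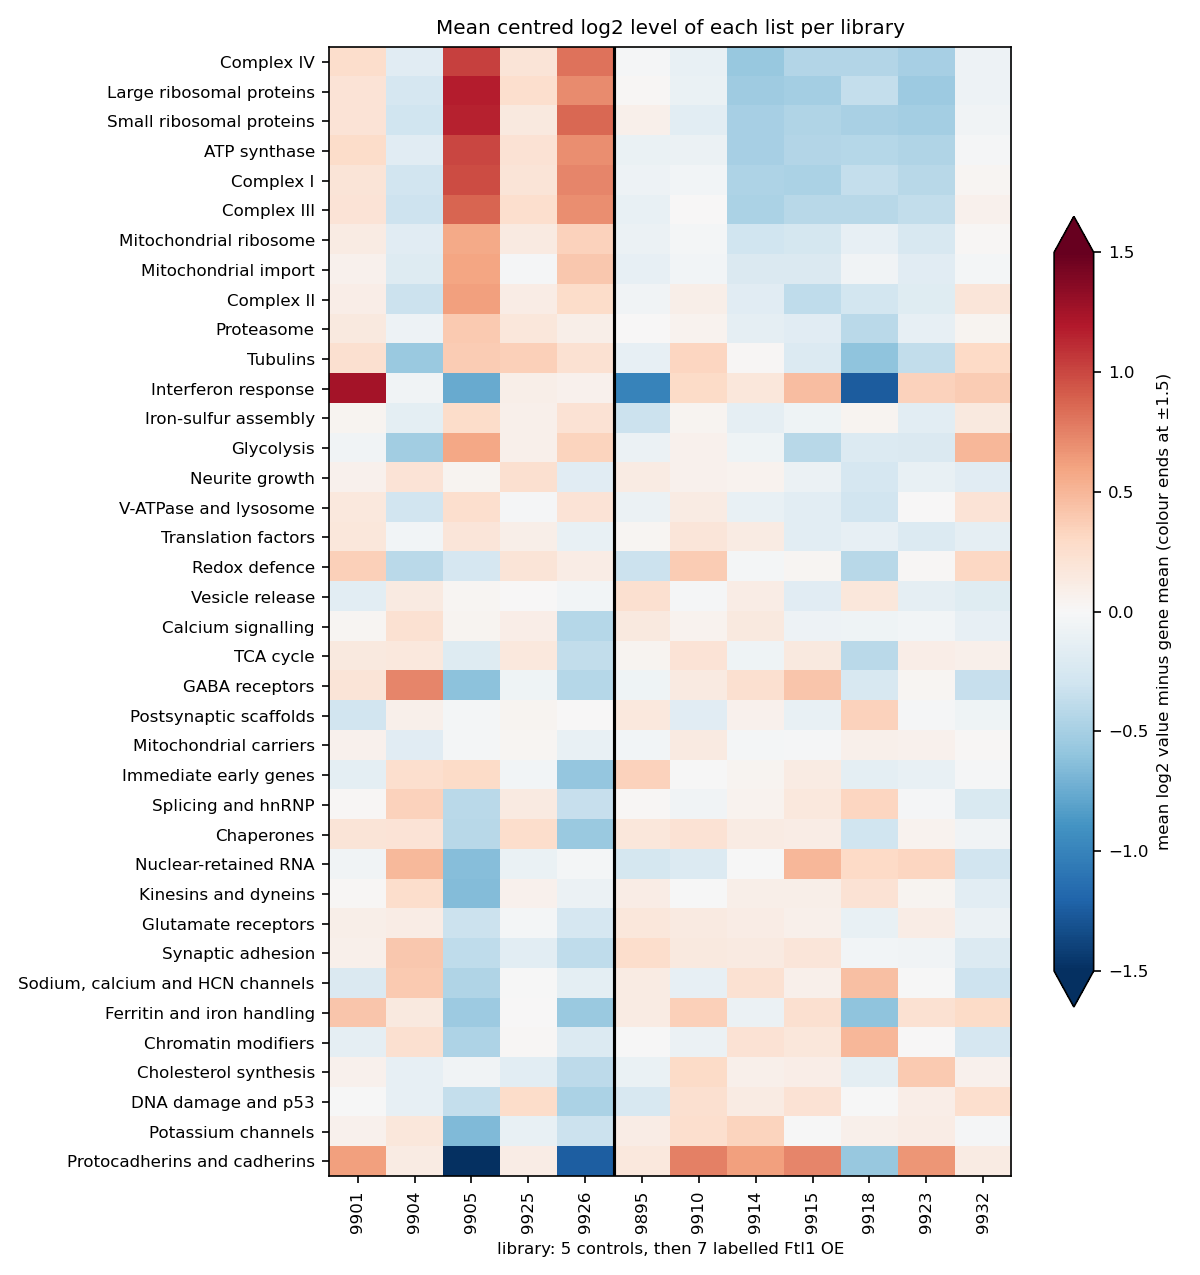
Mean log2 level of the tested members of each list in each library, after the mean of each gene over the 12 libraries was taken away, with red for higher and blue for lower levels and the controls left of the line. Controls 9905 and 9926 hold the highest levels of complexes I, III and IV, the ATP synthase and the ribosomal proteins, control 9904 has levels like those of Ftl1 OE, and the same 2 controls are lowest for the protocadherins.

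The ribosomal proteins, which build the cytosolic ribosome, were lower in nearly all members. Beside the 42.6% of all tested genes that were lower and the 3.66% lower at a nominal p, 47 of 49 proteins of the large subunit were lower, 40 at a nominal p, with a median log2 difference of −0.71. Of 33 proteins of the small subunit 32 were lower, 25 at a nominal p, with a median of −0.72. Their levels followed the order seen for complex I, with 1.18 in control 9905, 0.71 in 9926, 0.21 in 9901, 0.25 in 9925 and −0.25 in 9904 for the large subunit, against −0.54 to 0.02 in Ftl1 OE. Without control 9905 the medians were −0.50 and −0.54, and without the 3 libraries −0.34 and −0.35. Several of these genes have processed pseudogenes with near-identical sequence, and how the counting divided such reads was not tested.

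Rpl38 of the large subunit had 767, 588, 1639, 809 and 1024 normalized counts in the controls against a lowest of 262, a median of 425 and a highest of 530 in Ftl1 OE, without overlap. Its log2 difference was −1.18 (standard error 0.27) and −0.91 without the 3 libraries. Rpl3 and Rpsa, among the most abundant of their lists, differed by −0.40 and −0.41, and the groups overlapped.

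The mitochondrial ribosome, which translates the mitochondrially encoded subunits, was lower by less. Of its 78 genes 70 were lower, 24 at a nominal p (3.66% over all genes), and 1 (Mrpl3) was higher at a nominal p, with a median of −0.37 (−0.26 without control 9905 and −0.15 without the 3 libraries). Of 37 proteasome genes 28 were lower, 4 at a nominal p, with a median of −0.27 (−0.16 without control 9905 and −0.10 without the 3 libraries), among them the core subunit Psmb4 (−0.84, standard error 0.27). Of 49 translation factors 32 were lower, 3 at a nominal p, with a median of −0.19 (−0.06 without the 3 libraries). The sign of the chaperones depended on the libraries, with 27 of 42 higher and a median of 0.07 with all 12, but −0.02 under median centring, −0.10 without control 9926 and −0.15 without the 3 libraries. Hspe1, the small partner of the mitochondrial chaperonin, was lower without overlap (−0.62).

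Genes that defend against oxidants and those that assemble iron-sulfur clusters were followed because ferritin and iron bear on both. Of 35 redox genes 22 were lower, 5 at a nominal p (3.66% over all genes), with a median of −0.20, or −0.11 without control 9926 and −0.01 without the 3 libraries. Gpx1, a glutathione peroxidase, had 2025, 1275, 3784, 1779 and 2896 normalized counts in the controls against a lowest of 859, a median of 1036 and a highest of 1621 in Ftl1 OE. The groups overlapped through control 9904, and the log2 difference was −1.0 (standard error 0.27) and −0.54 without the 3 libraries. The other redox genes at a nominal p, named after their values were seen, were Prdx5 (−0.78), Gpx4 (−0.73), Txn2 (−0.62) and Sod1 (−0.60). Of 29 genes of iron-sulfur assembly 19 were lower, 4 at a nominal p, with a median of −0.14 that ran from −0.26 to −0.04 with each library left out, among them Glrx5, a glutaredoxin that hands clusters on (−0.65, and −0.45 without control 9905).

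**Figure D3:**
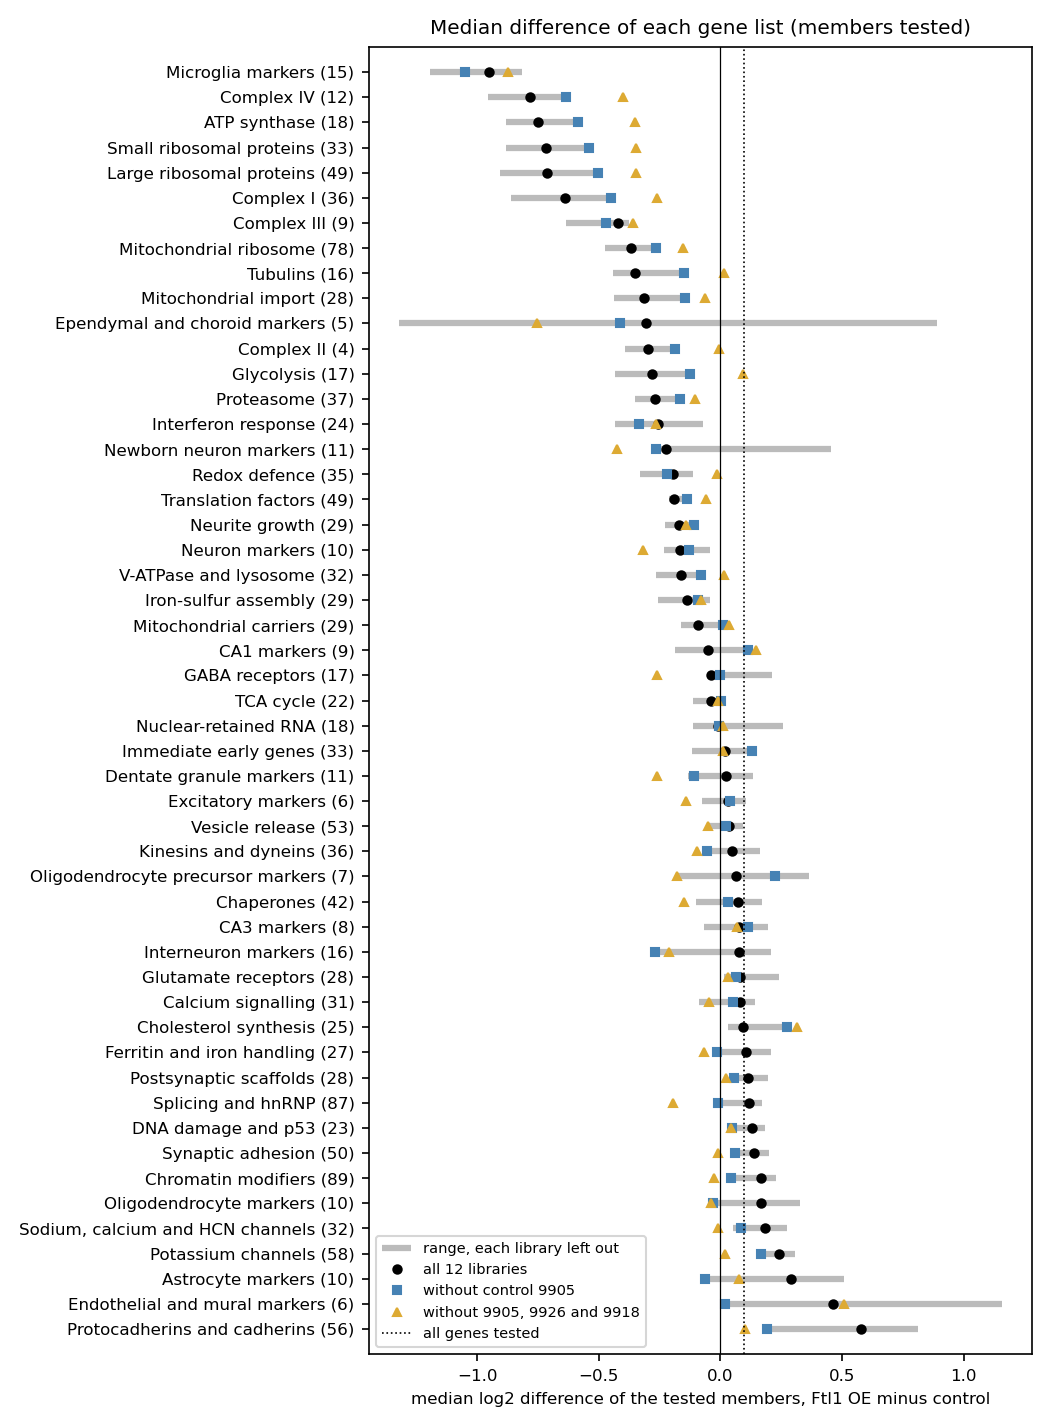
Median log2 difference, Ftl1 OE minus control, of the tested members of each gene list (number in brackets), with all 12 libraries, without control 9905 and without controls 9905 and 9926 and Ftl1 OE 9918, and the range when each library is left out in turn as a grey bar. Microglia markers, complex IV, the ATP synthase and the ribosomal proteins have the lowest medians, the protocadherins the highest, and the dotted line marks 0.10, the median of all genes tested.

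At the synapse, the lists as a whole stayed near the median of all genes with all 12 libraries, and the genes lower at a nominal p were few. Of 31 genes of calcium signalling 17 were higher and 14 lower, 1 and 3 at a nominal p, beside 3.6% and 3.66% of all tested genes. Their median was 0.08 (−0.02 under median centring and −0.09 without control 9926). Nrgn, neurogranin, which binds calmodulin in dendritic spines, had 5232, 6633, 5627, 6826 and 4736 normalized counts in the controls against a lowest of 2773, a median of 4256 and a highest of 4477 in Ftl1 OE. Every Ftl1 OE library was below every control, and 9905 was in the middle of the controls. The log2 difference was −0.59 (standard error 0.18), −0.60 without control 9905 and −0.67 without the 3 libraries, and DESeq2 gave an adjusted p of 0.0504.

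Grin2b, a subunit of the NMDA receptor, was at a nominal p, 1 of 28 glutamate receptor genes and thus near the 3.66% of all genes that were lower. It had 4248 ± 794 (SD, n = 5) in the controls and 3083 ± 635 (SD, n = 7) in Ftl1 OE. Its log2 difference was −0.47 (standard error 0.18), and −0.50 without control 9905 and −0.48 without the 3 libraries. The AMPA receptor subunits Gria1 and Gria2 differed by 0.27 and 0.06 (−0.04 for Gria2 under median centring), above a nominal p of 0.05. Dlgap4, a scaffold of the postsynaptic density, had −0.40, and Cntnap2, an adhesion protein of axons, −0.60, both at a nominal p with overlapping groups. Of the 28 postsynaptic scaffold genes 1 was lower at a nominal p, and of the 50 adhesion genes 1, beside 3.66% of all tested genes.

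Other synaptic lists held few differences. The 17 GABA receptor genes and the 53 tested genes of vesicle release had 0 genes at a nominal limma p in either direction. The GABA receptor median was −0.04, and −0.03 to 0.21 with each library left out. It was −0.31 without both controls 9905 and 9926 and −0.26 without the 3 libraries, beside −0.05 and −0.02 over all genes. The vesicle release median was 0.03 (−0.06 under median centring and −0.05 to 0.09 with each library left out). Camk2a, an abundant kinase of excitatory synapses, had 12186 ± 567 (SD, n = 5) and 12916 ± 1161 (SD, n = 7) normalized counts, a log2 difference of 0.08 (−0.02 under median centring). Of 50 adhesion genes 36 were higher, 1 at a nominal p, with a median of 0.14, or 0.06 without control 9905.

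Potassium channel genes were at a nominal p in a share near that of all genes. Over all tested genes 57.4% were higher, 3.6% at a nominal p, and of 58 potassium channel genes 40 were higher, 2 at a nominal p, with a median of 0.24, or 0.17 without control 9905 and 0.02 without the 3 libraries. Kcnt1, a potassium channel gated by sodium, differed by 0.74 (standard error 0.28), and Scn3b, an accessory sodium channel subunit, by 0.52 (standard error 0.20), with overlapping groups. Of 56 protocadherins and cadherins, adhesion molecules that give neurons their identity on the cell surface, 43 were higher, 6 at a nominal p, with a median of 0.58. Their level was −2.08 in control 9905, −1.24 in control 9926 and −0.57 in Ftl1 OE 9918, between 0.11 and 0.61 in the other controls and between 0.12 and 0.76 in the other Ftl1 OE libraries. Of these genes 21 had no read in control 9905. The median was 0.19 without control 9905, −0.03 without controls 9905 and 9926 and 0.10 without the 3 libraries.

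The cytoskeleton differed in single genes. Of 16 tubulins 15 were lower, 0 of them at a nominal limma p, with a median of −0.35 that was −0.15 without control 9905 and 0.02 without the 3 libraries. Tmsb10, thymosin beta 10, which binds actin monomers, had 327 ± 109 (SD, n = 5) against 146 ± 34.6 (SD, n = 7), without overlap, and a log2 difference of −1.14. Kif5a, a kinesin that carries cargo along axons, was higher with 2402 ± 319 (SD, n = 5) against 3295 ± 442 (SD, n = 7), a log2 difference of 0.45 (standard error 0.16) that was 0.57 without the 3 libraries. Among the dyneins, the light chain Dynlrb1 differed by −0.69.

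The lists of nuclear functions had small medians, and the sign of their small medians depended on the libraries. The shares over all tested genes were 57.4% higher, with 3.6% higher and 3.66% lower at a nominal p. Of 89 chromatin modifiers 62 were higher, 5 at a nominal p, with a median of 0.17, but 0.04 without control 9905 and −0.03 without the 3 libraries. Of 87 splicing genes 51 were higher, 4 at a nominal p, and 8 were lower at a nominal p, among them Snrpd2, a protein of the Sm ring (−1.01), while Srsf2, a serine-rich splicing factor, was higher by 1.0. Malat1, which stays in the nucleus, took between 0.138% of reads in control 9905 and 1.77% in Ftl1 OE 9918 and differed by 0.40 (standard error 0.50).

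Of 25 genes of cholesterol synthesis 16 were higher with a median of 0.09 (below 0 under median centring), and 19 were higher without control 9905, with a median of 0.27, or 0.32 without the 3 libraries. Sqle, squalene epoxidase, had 1120, 1089, 728, 782 and 550 normalized counts in the controls against a lowest of 999, a median of 1352 and a highest of 2105 in Ftl1 OE, and 6 of the 7 were above every control. The log2 difference was 0.74 (standard error 0.23) and 0.47 without the 3 libraries. Of 33 immediate early genes, which follow neuronal activity, 17 were higher with 0 at a nominal limma p in either direction, and a median of 0.02 (−0.12 without control 9926 and 0.13 without control 9905). Of 24 tested interferon genes 16 were lower, with a median of −0.25 that was −0.07 without Ftl1 OE 9918 and −0.43 without control 9926, and the level ran from 1.24 in control 9901 to −1.24 in Ftl1 OE 9918.

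The genes higher without overlap were single genes of varied function, some of them near the limit of detection in the controls. Bace1, the beta-secretase that cleaves the amyloid precursor protein, had 1113, 741, 941, 980 and 1080 normalized counts in the controls against a lowest of 1264, a median of 1564 and a highest of 2060 in Ftl1 OE. Control 9905 was inside the range of the other controls, and the log2 difference was 0.75 (standard error 0.18), 0.75 without control 9905 and 0.74 without the 3 libraries (DESeq2, adjusted p = 0.0147, or 0.135 without control 9905). Susd6, a gene named for its sushi domain, had 1025, 1100, 952, 1038 and 699 in the controls against a lowest of 1328, a median of 1701 and a highest of 1974. Its log2 difference was 0.81 (standard error 0.18), 0.81 without control 9905 and 0.64 without the 3 libraries. Kansl3, a member of the NSL complex that acetylates histones, differed by 0.80 (standard error 0.21), and Fezf2, a transcription factor of deep layer cortical neurons, by 0.79.

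Some genes had few or no reads in the controls. Syt9, Slc25a34 and Pole reached the mean of 10 through Ftl1 OE alone, so that they had to be higher there to be tested, and their values are a description. Syt9, a calcium sensor for vesicle release, had 2 reads in all controls together, both in 9926, and 393 reads in Ftl1 OE. Its normalized counts in Ftl1 OE ranged from 3.59 to 104. Reck, an inhibitor of metalloproteases, had 29.1, 36.9, 0, 74.9 and 44.1 normalized counts in the controls against a lowest of 128, a median of 157 and a highest of 296 in Ftl1 OE. Its log2 difference of 3.10 (standard error 0.87) was 2.0 without control 9905, in which it had no read. Slc25a34, a mitochondrial carrier, had counts above 0 in 1 of 5 controls (4.41 in 9925) and 9.92 to 67.1 in Ftl1 OE. Pole, the catalytic subunit of DNA polymerase epsilon, named since DESeq2 called it without control 9905, was at 0 in 4 of 5 controls and in Ftl1 OE 9895, and at 22.8 to 216 in the other 6.

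The number of genes that DESeq2 called depended on the libraries used. Only controls 9905 and 9926 and Ftl1 OE 9918 were left out of DESeq2, so the part of the other libraries in this number is not known. With all 12 libraries it called 94 genes lower, of which 29 encode subunits of oxidative phosphorylation, 26 cytosolic and 3 mitochondrial ribosomal proteins (61.7% together) and 36 other proteins. Among the 36, named after their values were seen, were Mt3, a metallothionein of neurons and astrocytes (−0.91), and Atox1, a copper chaperone (−1.0). Without control 9905 it called 1 gene lower (Ndufc1) and 3 higher (Syt9, Reck and Pole), without control 9926 1 lower and 2 higher, and without Ftl1 OE 9918 24 lower and 5 higher. The genes given an adjusted p changed too, from 5898 with all 12 libraries to 14074, 14042 and 5078 in these sets. With p adjusted over every gene that had one, 46 genes were lower with all 12 libraries, and 1, 1 and 6 in these sets. Without both controls DESeq2 called 0 genes lower, with 319 lower at a nominal p, and limma 0, with 280 lower at a nominal p.

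The direction of the 94 genes did not depend on these libraries. All 94 were lower in each of the 6 sets of libraries, with a median DESeq2 log2 difference of −1.03 with all libraries, −0.80 without control 9905 and −0.49 without the 3 libraries. At a nominal DESeq2 p, 94 were lower without control 9905, 62 without both controls and 52 without the 3 libraries. The sets share most libraries and the genes were called in the first of them, so their agreement is a description. The 7 genes called higher were Susd6, Bace1, Efr3b, Ralgds, Kansl3, Ppp1r15b and 4930402H24Rik, and all 7 were at a nominal p in every set.

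**Figure D4:**
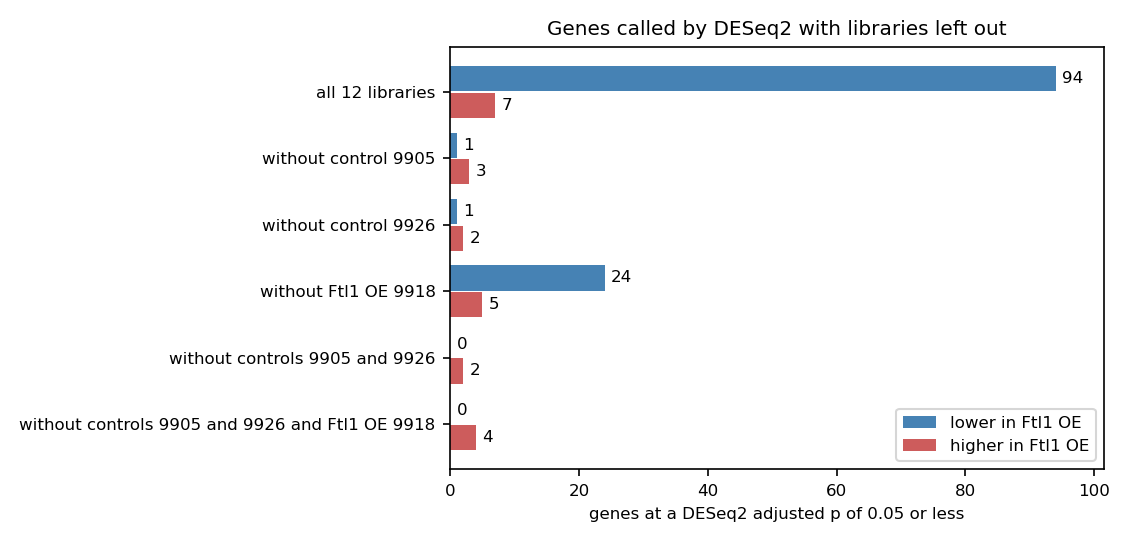
Number of genes at a DESeq2 adjusted p of 0.05 or less, lower (blue) and higher (red) in Ftl1 OE, with all 12 libraries and with libraries left out. The 94 genes called lower with all libraries become 1 without control 9905, 1 without control 9926 and 24 without Ftl1 OE 9918. DESeq2 gave an adjusted p to 5898 genes with all libraries and to 14074, 14042 and 5078 in these sets. No other library was left out here.

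The difference between the groups went along with transcript length, a property that the choice of genes did not use. Lengths of the longest transcript were available for 13571 of the tested genes in GENCODE M21. The median log2 difference was −0.54 for the 547 genes under 1 kb, −0.18 for the 2172 genes of 1 to 2 kb, 0.09 for the 5559 genes of 2 to 4 kb, 0.21 for the 3268 genes of 4 to 6 kb and 0.23 for the 2025 longer genes. Of the genes under 1 kb 30.7% were lower and 0.731% higher at a nominal limma p, and of those of 4 to 6 kb 0.826% were lower and 5.88% higher. Genes under 1 kb outside oxidative phosphorylation and the ribosomes had a median of −0.45, and the 87 genes of these families under 1 kb −0.79. The members of complex IV had a median length of 815 bases, those of the large ribosomal subunit 1059, the potassium channels 4254 and the protocadherins 5061.

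The slope with length was steepest in controls 9905 and 9926. The median centred level of the genes under 1 kb was 0.89 in control 9905 and 0.78 in control 9926, and that of genes over 6 kb was −0.65 and −0.25. The other controls had 0.22 (9901), 0.20 (9925) and −0.26 (9904) for genes under 1 kb, and Ftl1 OE −0.41 to 0.03. Without control 9905 the medians of the 5 length groups were −0.40, −0.13, 0.05, 0.11 and 0.07, and without the 3 libraries −0.23, −0.04, 0.02, 0.01 and −0.10. Within the shortest genes, the families of the respiratory chain and the ribosome were thus lower than the rest, and the part of length in their difference was not tested.

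**Figure D5:**
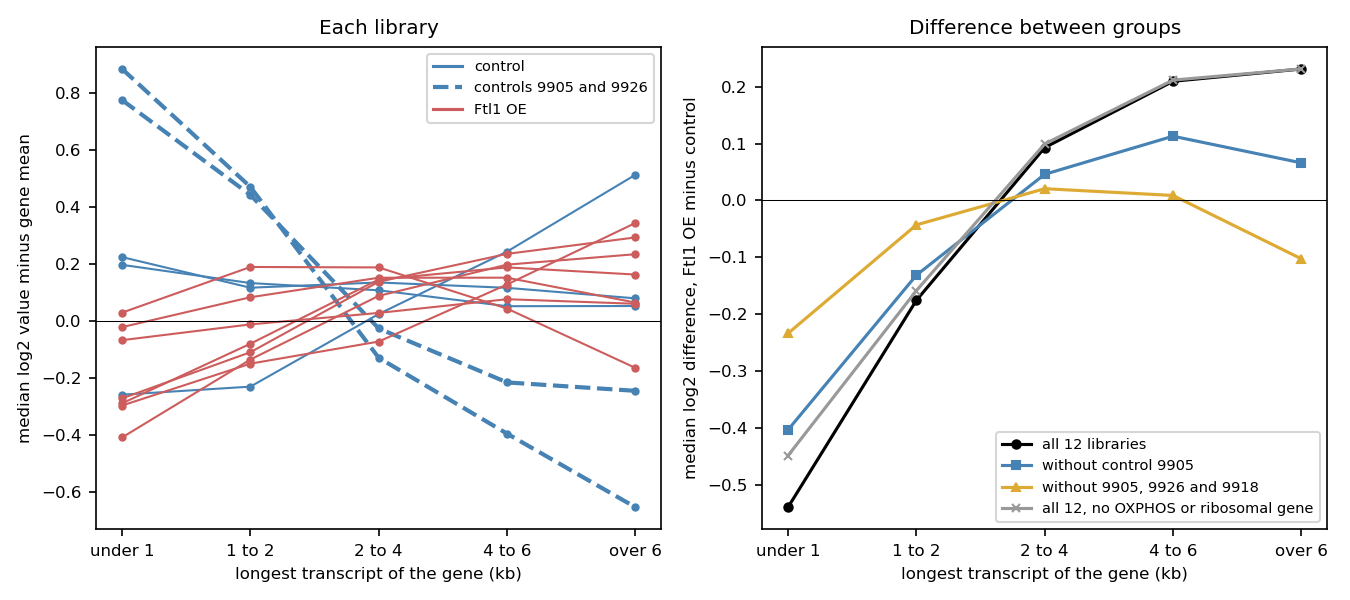
Left, median log2 level of the tested genes of each library, after the mean of each gene was taken away, in 5 groups of transcript length. Right, median log2 difference, Ftl1 OE minus control, in the same groups, with all libraries, with libraries left out and without the genes of oxidative phosphorylation and the ribosomes. Controls 9905 and 9926 fall from 0.89 and 0.78 under 1 kb to −0.65 and −0.25 over 6 kb, and the difference between groups runs from −0.54 to 0.23.

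Marker genes of other cells did not all move alike. Of 15 microglia markers 12 were lower, 5 of them at a nominal p (3.66% over all genes), with a median log2 difference of −0.95, which stayed at −1.05 without control 9905 and −0.87 without the 3 libraries. Their summed level was 7540, 4233, 4621, 3427 and 8245 in the controls against 2185 to 3740 in Ftl1 OE, and control 9925 was the control inside the Ftl1 OE range. C1qb, a chain of complement C1q, had 1266, 685, 987, 652 and 2322 normalized counts in the controls against a lowest of 258, a median of 571 and a highest of 712 in Ftl1 OE, a log2 difference of −1.03 (standard error 0.33). C1qa was at 0 in Ftl1 OE 9918, C1qc at 0 in control 9905 and P2ry12 at 0 in controls 9905 and 9926. The part of microglial RNA in the differences of other genes was not tested.

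Astrocyte markers had a median of 0.29, with 7 of 10 higher, that was −0.06 without control 9905, in which Aqp4, the water channel of astrocytes, had no read. Oligodendrocyte markers had a median of 0.17, or −0.03 without control 9905. Ttr, the transthyretin of the choroid plexus, ran from 247 to 104474 normalized counts in the controls and from 268 to 54661 in Ftl1 OE, and differed by −0.84 with a standard error of 1.53.

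Markers of the kinds of neuron did not shift together. The median log2 difference was 0.02 for dentate granule cells, −0.05 for CA1, 0.08 for CA3, 0.03 for excitatory neurons and 0.08 for interneurons. Under median centring all 5 were below 0, so the sign of all but CA1 turned. Without control 9905 the median was −0.27 for interneurons, −0.11 for dentate granule cells and 0.11 for CA1, each with its sign turned, and without control 9926 it was −0.07 for CA3 and −0.04 for excitatory neurons. Without both controls it was −0.30 for dentate granule cells, −0.29 for interneurons, −0.13 for CA3, −0.02 for excitatory neurons and 0.08 for CA1. Of the 10 general neuron markers 8 were lower, beside 42.6% of all tested genes. Their median was −0.16, or −0.13 without control 9905 and −0.32 without the 3 libraries. Sst, the peptide somatostatin of a class of interneurons, had 2518, 3382, 8165, 2456 and 4125 normalized counts in the controls against a lowest of 1708, a median of 1879 and a highest of 2371 in Ftl1 OE. All 7 were below the lowest control, although control 9905 lay at 2.62 times the mean of the others. The log2 difference was −0.94 (standard error 0.25), −0.65 without control 9905 and −0.50 without the 3 libraries. Pvalb, the parvalbumin of another class, differed by −0.98, and Lhx6, a transcription factor of the same interneurons, by 2.36, or 1.06 without control 9905, in which it had no read. The enzymes Gad1 and Gad2, named after their values were seen, which make GABA, differed by 0.29 and −0.51, within the spread of the groups.

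Control 9905 itself differed from the other controls in the families that differed between the groups. Among 10104 genes with a mean of at least 100, it was more than 2-fold above the other 4 controls for 1636 and more than 2-fold below for 2304 (39.0% together), and 320 of these genes had no read in it. The ribosomal proteins of the large subunit were higher in 9905 by a median of 1.07 on the log2 scale (46 of 49 genes), those of the small subunit by 1.02, complex I by 0.85, the ATP synthase by 0.80 and glycolysis by 0.90. The median was −1.42 for the protocadherins and −0.45 for the chromatin modifiers. The genes farthest below in 9905 were C1qc, Thbs4, Slc31a1, Aqp4 and Nol4, all at 0 there, and those farthest above were Myd88, Pcdhga9, Fut10, Zfp647 and Cttnbp2nl, all at 0 in control 9926.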

How the data were processed

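The processing notes name STAR, RSEM and DESeq2 and the mouse genome mm10, and the release of the annotation was not given in the sources used here. The authors deposited normalized counts (a signal: reads per gene divided by a size factor of each library), with columns of their own fold changes and p-values, which were not used. Each table of the series was normalized separately. All values were whole multiples of 1 step per library (100% within a tolerance of 0.01 reads), so whole reads could be recovered, and 0 columns of single libraries were left unused. The paper describes Smart-seq2 libraries and the sample records a strand-specific polyA kit, and how antisense or near-identical genes were counted is not known.

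Genes were tested with limma 3.58.1 (R 4.3.3) on log2(normalized count + 1), with the group as the only term. The prior variance followed the mean level, and Benjamini-Hochberg adjustment ran over all 14099 genes. Differences of low genes on this scale can be smaller or larger than with DESeq2. A library without a read can widen them, as for Reck (3.10 against 2.31 with DESeq2). A p-value sets the difference between the groups against the spread between libraries. The chi-square per degree of freedom between the reads of 2 libraries of a group ran from 38.8 to 275 over 31 pairs, so that no library was a copy of another. Alternatives were edgeR 4.0.16 and DESeq2 1.42.0 on the recovered reads, pseudocounts of 0.5 and 5, a mean of at least 100 or no filter, TMM factors, median centring, library weights and each library left out, and, added after the data were seen, DESeq2, edgeR and limma without controls 9905 and 9926 or Ftl1 OE 9918 and DESeq2 without independent filtering.

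In simulated libraries with 200 of 14099 genes changed 4-fold, limma recovered 49.5%, edgeR 54% and DESeq2 67% of them, and 5.71%, 3.57% and 26.0% of their calls were unchanged genes. Each gene was drawn on its own there, with no shift shared by many genes of a library. The changes were also larger than those of Rps29 (2.46-fold lower) and Bace1 (1.69-fold higher). These shares therefore do not carry over to this comparison. Levels and lengths (GENCODE M21, longest transcript, 96.3% of tested genes) and the 52 lists of genes are described without a test.

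Named genes were Ftl1 and Fth1, the 10 genes in each direction with the smallest limma p among those without overlap, for each list the gene with the smallest p in each direction (if nominally 0.05 or less) and the 2 most abundant, and the 5 genes farthest above and below in control 9905, leaving out predicted genes. Other genes, among them Rbfox3, Pvalb, Mt3 and Pole, were added after their values were seen. The groups, lists and genes were chosen with earlier results of these data known.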

Additional observations from a re-analysis of the deposited data

Results flagged for a closer look

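A library was marked where its gap to the nearest library of its group was larger, as a share of the range of the group, than Dixon's 95% limit for a group of that number (0.71 for the 5 controls, and lower for the 7 libraries labelled Ftl1 OE). Of 146 such tests 11 passed, and chance passes about 1 in 20. The passes of Slc25a34 and Syt9, with reads in 1 control, were fixed in advance. The level of a list is the mean log2 level of its genes, each centred on its mean over the 12 libraries. Among the controls, the share was 0.713 for the low level of postsynaptic scaffolds in 9901 (−0.28), 0.831 for the low level of tubulins in 9904 (−0.55), 0.728 for the low level of astrocyte markers in 9905 (−2.09) and 0.809 for the low level of interneuron markers in 9905 (−1.28).

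Of single genes in the controls, Reck was far below in 9905 (0.786) and Ndufc1 far above in 9926 (0.730). For Slc25a34 and Syt9, 9925 and 9926 were the controls with a read. The share is then 1 whatever the number of reads, so these flags do not show an unusual library. In Ftl1 OE, the level of oligodendrocyte precursor markers was low in 9895 (0.703, at −1.32), and the levels of endothelial and mural markers (0.611, at −3.25) and of CA3 markers (0.744, at −0.30) were low in 9918. Controls 9905 and 9926 and Ftl1 OE 9918 thus account for 7 of the 11, that of Syt9 in 9926 among them.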

How the results depend on the processing

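The medians of the nuclear-encoded respiratory complexes, the ATP synthase and both ribosomal subunits stayed below 0 under every alternative run, though that of complex II came to −0.004. Of 1071 alternatives for 51 lists, 19 moved a median by more than its spread between libraries, most of them without controls 9905 and 9926. Of 167 genes followed under 3166 alternatives in all, 0 of those at a nominal limma p turned in direction, and 21 alternatives, all from DESeq2, brought a gene past the adjusted threshold. For genes higher and lower at an adjusted p, limma gave 0 and 0, and DESeq2 gave 7 and 94, 3 and 1 without control 9905, 2 and 1 without control 9926, 5 and 24 without Ftl1 OE 9918, 2 higher without both controls and 4 higher without the 3 libraries. Without independent filtering, DESeq2 gave 14 and 46, and 3 and 1 without control 9905.

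At a nominal p, against 507 genes higher with limma, 324 were higher with a mean of at least 100 (fewer genes tested), 777 with library weights, 294 with edgeR, 330 and 307 with DESeq2 without 9905 and without 9918, and 267, 333 and 260 with edgeR without 9905, 9926 and 9918. Against 516 genes lower, 819 were lower with DESeq2, 776 with DESeq2 without 9918, and 319 (DESeq2) and 280 (limma) without both controls. Against 24 higher and 58 lower without overlap, 35 were lower under median centring, and 163 higher and 174 lower did not overlap without both controls, or 237 and 243 without the 3 libraries, where fewer libraries can overlap. Except where said, the cause of these shifts was not tested.

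With each library left out in turn, limma called 0 to 1 genes higher at an adjusted p (1 without control 9925) and 0 lower, 340 to 1009 higher and 301 to 986 lower at a nominal p, and 28 to 73 higher and 62 to 250 lower without overlap, where any library left out but Ftl1 OE 9915 or 9923 raised the 24 higher by over 1.5 times. The highest counts came without control 9904 (1009, 986, 73 and 250), and 301 without control 9905. Without control 9901, 827 were higher at a nominal p, and without Ftl1 OE 9932, 95 were lower without overlap. The log2 difference of Ftl1 ran from −0.92 (without control 9904) to −0.27 (without control 9905), and the median of all genes from 0.02 to 0.12. No paired analysis was possible because the numbers of the libraries are those of single mice and the groups share none. For Syt9, Slc25a34 and Pole, 4 of 5 controls had no read, so no fold is given.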
